A study of Mus musculus with 4 samples.

Results

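The genes described here are 37 endothelial and angiogenesis genes, chosen by name for endothelial identity, tip cells, adhesion and angiogenic receptors, out of 23283 gene symbols measured. All 37 were present in the table with 1 row each. They were read in tumours grown from CT26, a mouse colon carcinoma cell line, with BALB/c given as the strain background. The 4 groups were IL-34-overexpressing (OE) tumours under an anti-PD-1 antibody, untreated OE tumours, IL-34-deficient (KO) tumours under anti-PD-1, and untreated KO tumours, with 1 RNA-seq library each. IL-34 is a cytokine that binds the CSF-1 receptor of macrophages, and T cells carry PD-1 as a brake on their activity. The labels name no animals, doses, days or clones behind a library, and no library came from CT26 cells with unaltered IL-34.

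Tumours draw new vessels from those of the host. Vascular endothelial growth factor (VEGF) binds receptors on endothelial cells, and the cell that leads a sprout, the tip cell, turns on Dll4, Apln, Esm1 and Angpt2, while Notch signalling holds its neighbours back as stalk cells. Angiopoietins and the Tie receptors then govern whether a vessel matures, with mural cells around it, or remains plastic. The vessel wall also sets how leukocytes enter, through selectins and cell adhesion molecules.

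With 1 library in each group there was no spread between replicates, no comparison below has a replicate check, and none was given a test. Levels are FPKM, fragments scaled to transcript length and to the mapped fragments of the library. Differences are log2 ratios of FPKM + 1, which understate the differences of low genes, and folds are plain ratios of FPKM. A gene was counted as higher or lower by size where that ratio was at least 0.5 in either direction and the gene reached 1 FPKM in any library compared. In RNA of whole tumours, fewer endothelial cells, less RNA per endothelial cell and a changed share from other cells cannot be told apart. Il34 was at 104 FPKM in both OE libraries, against 3.02 and 3.52 FPKM in treated and untreated KO tumours, the direction of the labels. FPKM summed to between 488881 and 543926 per library, lowest in treated KO tumours. Relative depth, read from the size of single-fragment steps, was between 90.0% and 100% of that of the untreated KO library.

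The treated KO library differed from the other 3 in genes of skin and muscle. The 7 epidermis genes summed to 1.51 and 1.15 FPKM in treated and untreated OE tumours and to 105 and 4.27 FPKM in treated and untreated KO tumours. The 7 skeletal muscle genes summed to 12.3 and 90.8 FPKM in treated and untreated OE tumours and to 370.0 and 118 FPKM in treated and untreated KO tumours. In both KO libraries 0 of these 14 genes was listed at 0. In treated KO tumours the keratin Krt14 stood at 18.5 FPKM and the actin Acta1 at 143 FPKM. Skin and muscle have vessels of their own, and their part in the endothelial values of this library was not tested.

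Promoter sequence is shown for 3 tip cell genes that were lower together in the treated KO library, and for Tie1, an endothelial receptor gene that did not pass the size rule there. Each line gives the 250 bases before the start of the gene, 5′ to 3′ on the gene's strand, from RefSeq on GRCm38.p6, at chrX:48034854-48035103 (minus strand), chr2:119325534-119325783 (plus), chr13:113209409-113209658 (plus) and chr4:118489850-118490099 (minus). Capitals mark AGGAAG or its complement CTTCCT, letters recognised by ETS factors such as ERG.
Apln: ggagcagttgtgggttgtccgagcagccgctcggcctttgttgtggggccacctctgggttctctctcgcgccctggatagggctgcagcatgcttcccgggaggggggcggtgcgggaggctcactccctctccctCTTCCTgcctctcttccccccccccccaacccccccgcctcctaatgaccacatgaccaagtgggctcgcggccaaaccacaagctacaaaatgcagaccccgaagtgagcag
Dll4: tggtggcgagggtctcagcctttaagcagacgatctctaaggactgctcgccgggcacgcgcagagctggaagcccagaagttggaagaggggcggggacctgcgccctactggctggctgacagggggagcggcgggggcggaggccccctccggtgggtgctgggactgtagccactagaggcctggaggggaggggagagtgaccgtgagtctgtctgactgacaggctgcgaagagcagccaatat
Esm1: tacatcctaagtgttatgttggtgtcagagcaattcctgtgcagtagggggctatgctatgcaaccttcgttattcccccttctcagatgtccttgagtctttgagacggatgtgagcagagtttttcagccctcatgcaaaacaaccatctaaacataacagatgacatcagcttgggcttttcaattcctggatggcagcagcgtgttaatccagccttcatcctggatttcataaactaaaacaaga
Tie1: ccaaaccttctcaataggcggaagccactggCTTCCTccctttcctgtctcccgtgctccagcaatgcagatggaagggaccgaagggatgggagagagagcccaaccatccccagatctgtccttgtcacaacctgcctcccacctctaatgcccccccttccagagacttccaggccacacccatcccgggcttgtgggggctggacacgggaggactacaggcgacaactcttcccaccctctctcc

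RefSeq promoters were at hand for 20 of the 37 members. AGGAAG, on either strand, was in the 250 bases of 13 of those 20 genes, against 32.3% of 27025 genes, and in 14 of their 24 promoters, against 29.5% of 32851 promoters. The 13 genes were Apln, Cd34, Egfl7, Emcn, Eng, Erg, Flt1, Notch4, Rasip1, Robo4, Sele, Selp and Tie1. The matches of Apln and Tie1 began at positions -113 and -219 from the start, and Dll4 and Esm1 held none in this window. ACGTG, the core of the hypoxia response element, was in the window of 1 member (Clec14a) against 18.5% of genes, ACAATG, bound by SOX factors, in 2 (Erg and Notch4) against 12.2%, and AGATAA, bound by GATA factors, in 1 (Erg) against 11.4%. None of the motifs overlapped another in the promoters printed. These letters are descriptions of the windows and say nothing of binding.

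Every member was above 0 in all 4 libraries, so that the defining markers of endothelium were detected in each. Pecam1, the junctional adhesion molecule that marks endothelium (mm10 chromosome 11, 106654218 to 106715281), was at 17.0 and 20.1 FPKM in treated and untreated OE tumours and at 14.8 and 16.9 FPKM in treated and untreated KO tumours. The levels of the members spanned from Vwf, below 1 FPKM in every library, to Cd34 above 200 FPKM. Of the 37, 32 reached 1 FPKM in at least 1 library, and Flt4, Tek, Sox7, Sox17 and Vwf did not. The median member was at 3.47 and 3.89 FPKM in treated and untreated OE tumours and at 2.63 and 3.29 FPKM in treated and untreated KO tumours.

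**Figure D1:**
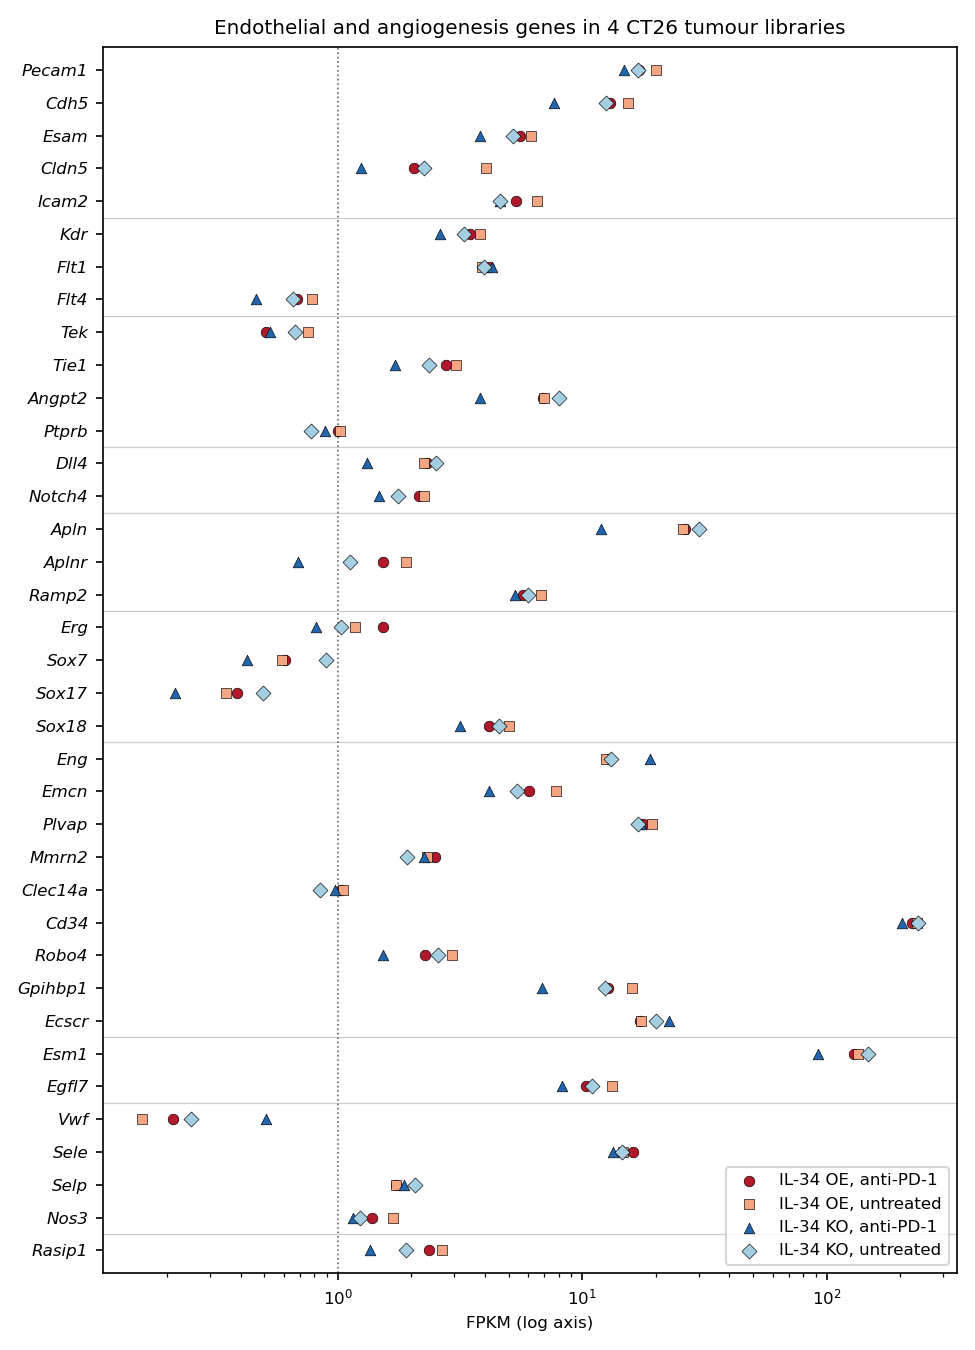
FPKM (horizontal log axis) of the 37 members, grouped by role from top to bottom, in the 4 libraries; each point is 1 library and the dotted line is 1 FPKM. The treated KO library (dark blue triangles) is the lowest point for 27 of 37 members, and the untreated OE library (light squares) the highest for 22.

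Treated KO and untreated OE tumours stood at the ends of the order. The treated KO library held the lowest value of 27 of the 37 members, where 45.7% of 11826 genes had their lowest value, and the untreated OE library held the highest value of 22, where 18.8% of genes had theirs. The shares here are of genes that reached 1 FPKM in any library, while the counts cover all 37 members. Both depend on the scale of each library, and summed FPKM was lowest in treated KO tumours. Neither was redone after rescaling to TPM. Among the 32 members that reached 1 FPKM, treated KO tumours held 24 of the lowest values and untreated OE tumours 20 of the highest. The treated OE library held the highest value of 3 members (19.3% of genes) and the lowest of 2 (20.9%). In the untreated OE library 4 members were lowest (19.9% of genes). Untreated KO tumours had the highest value of 8 members (31.1% of genes) and the lowest of 4 (13.4%), and treated KO tumours the highest of 4 (30.8%). In 15 of the 37 members the highest library was less than 1.5 times the lowest, and the share of all genes under this cut was not computed. In 9 members the highest library was at least 2 times the lowest, where 7.07% of genes with at least 1 FPKM in any library varied as much. Sox7, Sox17 and Vwf, which stayed below 1 FPKM in every library, were among these 9.

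The first comparison asked how anti-PD-1 went with endothelial genes where the tumour cells lacked IL-34. The tip cell genes Apln, Angpt2, Esm1 and Dll4, the junction genes Cdh5 and Cldn5, and Gpihbp1 were lower in the treated KO tumours, and no member was higher by size. Among the 30 members that reached 1 FPKM in either library the median log2 ratio was -0.27, against -0.06 over 11725 genes, and over all 37 members it was -0.21. By size 7 members were lower, where 2.78% of genes were, and 0 were higher, where 7.21% of genes were. The 7 were Apln, Angpt2, Gpihbp1, Esm1, Cdh5, Dll4 and Cldn5. Erg and Aplnr reached 1 FPKM through the untreated library alone. Robo4, at -0.50, and Eng, at 0.50, lay just short of the size rule after rounding and were not counted. With a pseudocount of 5 the count of lower members was 4 (Angpt2, Apln, Esm1 and Gpihbp1). Rescaling to TPM moved the median of all genes by 0.15 and that of the members to -0.13, with a lower count that was still 7, and relative to the median of all genes the members' median was -0.21.

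Of the tip cell genes, Apln showed the widest difference. Apln, a peptide that tip cells secrete (chromosome X, 48025146 to 48034852), was at 11.9 FPKM in treated against 29.9 FPKM in untreated KO tumours, which was 2.51-fold lower, with a log2 ratio of -1.26. Angpt2, a ligand that opposes Tie2 signalling in many settings and is made by activated endothelium (chromosome 8, 18691337 to 18741551), had 3.83 FPKM in treated and 8.03 FPKM in untreated KO tumours, with a log2 ratio of -0.90. Esm1, a secreted proteoglycan of tip cells also called endocan (chromosome 13, 113209659 to 113218104), stood in treated KO tumours at 92.0 FPKM and in untreated ones at 147 FPKM, giving a log2 ratio of -0.67. Dll4, the Notch ligand of tip cells (chromosome 2, 119325784 to 119335666), had 1.32 FPKM in treated and 2.52 FPKM in untreated KO tumours, with a log2 ratio of -0.60. All 4 were lower in treated KO tumours than in any other library, as the plot of levels shows; these 4 were set apart after their values were seen. Kdr, Flt4 and Cd34, which tip cells also express, had smaller log2 ratios of -0.24, -0.18 and -0.21.

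The same genes hardly differed in OE tumours. Apln was at 26.3 FPKM in treated against 25.7 FPKM in untreated OE tumours, and Angpt2 at 6.88 FPKM in treated against 6.97 FPKM in untreated ones. Esm1 was at 129 FPKM in treated against 134 FPKM in untreated OE tumours, and Dll4 at 2.33 FPKM in treated against 2.25 FPKM in untreated ones. Each of the 4 pairs lay within a log2 ratio of 0.1. Their log2 ratios in OE tumours were 0.03, -0.02, -0.06 and 0.03. The difference of the responses, OE minus KO, was 1.29 for Apln, 0.89 for Angpt2, 0.61 for Esm1 and 0.63 for Dll4. These 4 were the members with a difference of at least 0.5 upward, where 3.7% of 11826 genes had one, and 0 members had one downward, where 7.8% of genes did. The difference has no residual spread and was not tested.

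**Figure D2:**
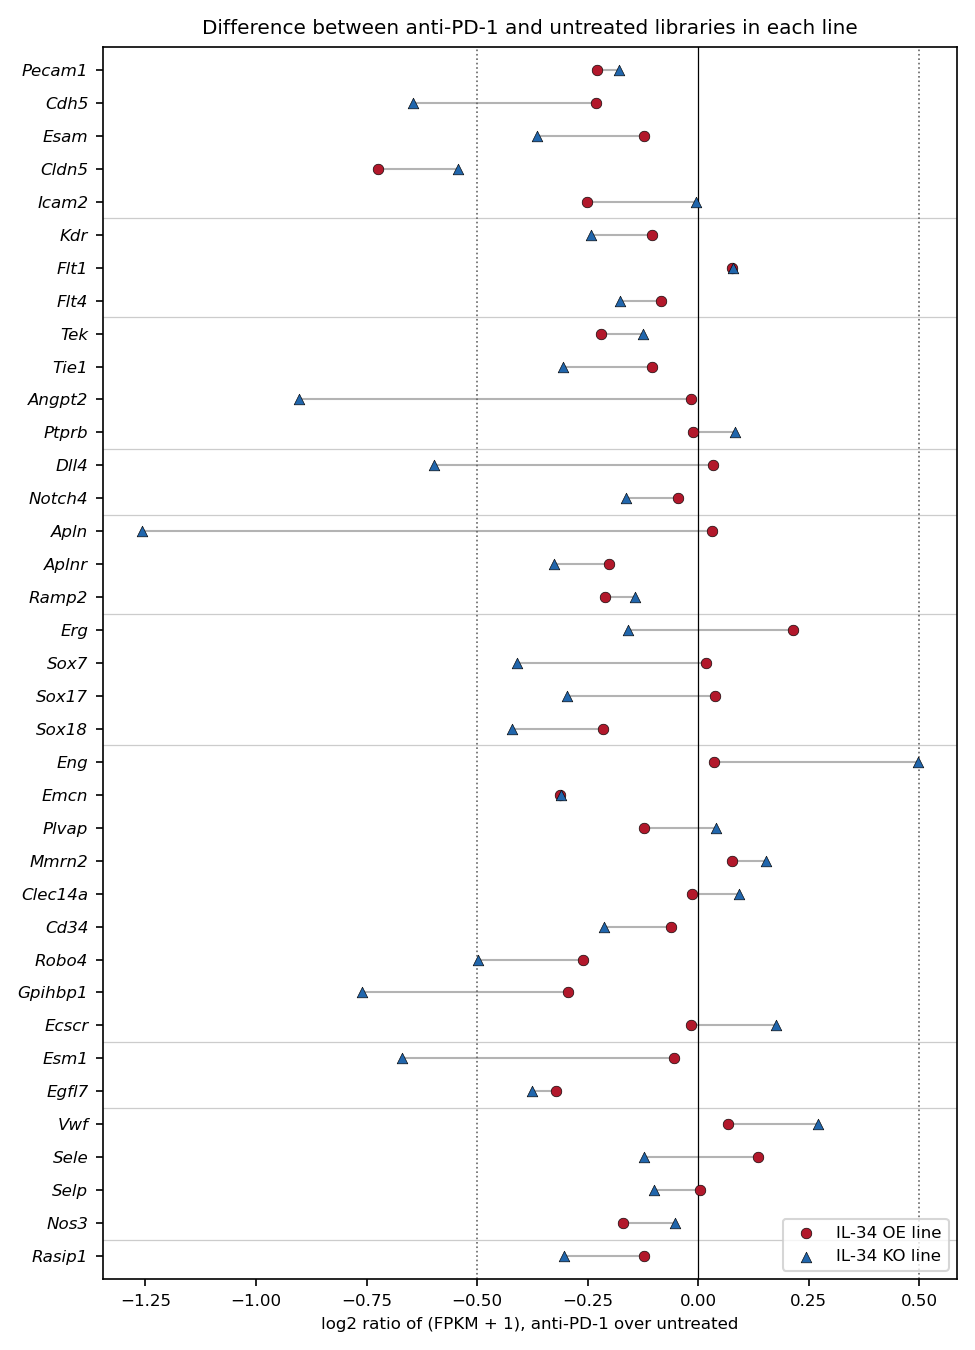
Log2 ratio of FPKM + 1, anti-PD-1 over untreated (horizontal axis), of the 37 members in the OE line (red circles) and the KO line (blue triangles), joined by a grey line, with 1 library per group. Dotted lines mark a ratio of 0.5 in either direction; 7 members lie beyond the lower line in the KO line and 1, Cldn5, in the OE line.

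Junction genes divided. Cdh5, which encodes VE-cadherin, the cadherin of endothelial junctions (chromosome 8, 104101625 to 104144502), was at 7.63 FPKM in treated against 12.5 FPKM in untreated KO tumours, a log2 ratio of -0.65. In OE tumours it was at 13.0 FPKM with and 15.4 FPKM without anti-PD-1, a ratio of -0.23. Cldn5, a tight junction protein (chromosome 16, 18776847 to 18778262), was at 2.06 and 4.05 FPKM in treated and untreated OE tumours and at 1.24 and 2.26 FPKM in treated and untreated KO tumours. It was the junction gene lower by size with anti-PD-1 in both lines, with log2 ratios of -0.72 in OE and -0.54 in KO tumours. Esam, an adhesion molecule of endothelial junctions, was at 5.57 and 6.15 FPKM in treated and untreated OE tumours and at 3.83 and 5.22 FPKM in treated and untreated KO tumours. Icam2, a ligand for leukocyte integrins, was at 5.34 and 6.55 FPKM in treated and untreated OE tumours and at 4.61 and 4.63 FPKM in treated and untreated KO tumours. Thus Icam2 hardly differed in the KO line, and its log2 ratio of -0.0045 there turned positive after rescaling to TPM. Cdh5 and Cldn5 passed the size rule in that line. Pecam1 had log2 ratios near each other in the lines, -0.18 in KO and -0.23 in OE tumours. Rasip1, a regulator of small GTPases needed for lumens in the mouse, was at 2.37 and 2.67 FPKM in treated and untreated OE tumours and at 1.36 and 1.91 FPKM in treated and untreated KO tumours.

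The VEGF receptors varied by 1.10-fold (Flt1), 1.45-fold (Kdr) and 1.68-fold (Flt4) between their highest and lowest libraries. Kdr, the main signalling receptor for VEGF-A (VEGFR2), was at 3.47 and 3.81 FPKM in treated and untreated OE tumours and at 2.63 and 3.29 FPKM in treated and untreated KO tumours. Flt1 (VEGFR1), which binds VEGF-A and placental growth factor with little signalling of its own, lay between 3.89 and 4.26 FPKM in all 4 libraries. Flt4 (VEGFR3), the receptor for VEGF-C and VEGF-D that lymphatic vessels keep, was between 0.464 and 0.781 FPKM. Kdr and Flt4 were lowest in treated KO tumours and Flt1 was highest there. Of the ligands, Vegfa was at 31.7 and 28.5 FPKM in treated and untreated OE tumours and at 25.5 and 33.3 FPKM in treated and untreated KO tumours. Vegfb was between 47.4 and 51.0 FPKM and Vegfd, listed under its older symbol Figf, between 11.7 and 13.4 FPKM. Vegfc stayed below 1 FPKM. Vegfa was thus lowest in treated KO tumours, by less than the size rule, while the other VEGF genes above 1 FPKM were near level. Pgf, which encodes placental growth factor, was at 3.63 and 4.41 FPKM in treated and untreated OE tumours and at 2.08 and 5.42 FPKM in treated and untreated KO tumours. Its log2 ratio with anti-PD-1 was -0.23 in OE and -1.06 in KO tumours.

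The Tie axis was led by its ligand. Tie1, an orphan receptor that tunes Tie2 (chromosome 4, 118471191 to 118489849), was at 2.77 and 3.05 FPKM in treated and untreated OE tumours and at 1.72 and 2.36 FPKM in treated and untreated KO tumours. Tek, which encodes Tie2, was between 0.508 and 0.757 FPKM, and Ptprb, a phosphatase that acts on Tie2, between 0.778 and 1.02 FPKM. Receptor levels were thus near or below 1 FPKM except for Tie1. Angpt1, the ligand that activates Tie2, was between 0.112 and 0.305 FPKM, so that Angpt2 had the higher level of the 2 ligands in every library. Notch4, a Notch receptor of endothelium, was at 2.15 and 2.25 FPKM in treated and untreated OE tumours and at 1.47 and 1.76 FPKM in treated and untreated KO tumours. Of the other Notch pathway genes, 1 of 7 that reached 1 FPKM was higher by size in treated KO tumours (Lfng), where 7.21% of genes were, and 0 were lower, where 2.78% were. Of the most abundant of them, Rbpj, Nrarp and Notch2 had log2 ratios of 0.04, -0.14 and 0.23 in OE tumours and -0.48, -0.40 and 0.24 in KO tumours.

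Receptors of the apelin and adrenomedullin peptides were highest in untreated OE tumours. Aplnr, the apelin receptor, was at 1.52 and 1.90 FPKM in treated and untreated OE tumours and at 0.689 and 1.12 FPKM in treated and untreated KO tumours. Ramp2, which with Calcrl forms a receptor for adrenomedullin, was at 5.72 and 6.78 FPKM in treated and untreated OE tumours and at 5.32 and 5.98 FPKM in treated and untreated KO tumours. Adm, which encodes adrenomedullin, was at 4.13 and 2.97 FPKM in treated and untreated OE tumours and at 1.03 and 3.12 FPKM in treated and untreated KO tumours, a log2 ratio of 0.37 in OE and -1.02 in KO tumours.

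Transcription factors of endothelial identity were low. Sox18 was at 4.17 and 5.005 FPKM in treated and untreated OE tumours and at 3.16 and 4.57 FPKM in treated and untreated KO tumours. Erg, an ETS factor, was at 1.53 and 1.18 FPKM in treated and untreated OE tumours and at 0.814 and 1.03 FPKM in treated and untreated KO tumours. Sox7 and Sox17, relatives of Sox18 that act in arterial and vascular development, ranged from 0.426 to 0.893 and from 0.216 to 0.494 FPKM. All 4 factors had their lowest value in treated KO tumours.

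Of the 9 surface and matrix glycoproteins, 8 reached 1 FPKM in either KO library. By size 1 of these 8, Gpihbp1, was lower in treated KO tumours, where 2.78% of genes were, and 0 were higher, where 7.21% were. Gpihbp1, which carries lipoprotein lipase across capillary endothelium (chromosome 15, 75596658 to 75598213), was at 12.8 and 15.9 FPKM in treated and untreated OE tumours and at 6.87 and 12.3 FPKM in treated and untreated KO tumours. Emcn, a sialomucin of veins and capillaries, was at 6.08 and 7.79 FPKM in treated and untreated OE tumours and at 4.16 and 5.40 FPKM in treated and untreated KO tumours. Robo4, a vessel-stabilising receptor, was at 2.28 and 2.93 FPKM in treated and untreated OE tumours and at 1.53 and 2.58 FPKM in treated and untreated KO tumours. Each of these 3 was lowest in treated KO and highest in untreated OE tumours.

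Eng was the member with the highest log2 ratio in the KO line. Eng encodes endoglin, a co-receptor for BMP and TGF-beta ligands that macrophages and stromal cells also express (chromosome 2, 32646595 to 32682669). It was at 12.8 and 12.5 FPKM in treated and untreated OE tumours and at 18.8 and 13.1 FPKM in treated and untreated KO tumours, a fold of 1.44 in the KO line. Ecscr, a surface protein of endothelial cells, was at 17.2 and 17.4 FPKM in treated and untreated OE tumours and at 22.7 and 20.0 FPKM in treated and untreated KO tumours. Vwf, the clotting factor carrier stored in endothelial cells and platelets, was at 0.212 and 0.158 FPKM in treated and untreated OE tumours and at 0.510 and 0.251 FPKM in treated and untreated KO tumours. These 3 members were at their highest in treated KO tumours, as was Flt1. Plvap, of the diaphragms of fenestrated capillaries, stayed between 16.9 and 19.3 FPKM, Mmrn2, an endothelial matrix protein, between 1.92 and 2.50 FPKM, and Clec14a, a surface lectin that binds Mmrn2, between 0.849 and 1.05 FPKM.

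Cd34 and Esm1 stood far above the other members. Cd34, a sialomucin of endothelium, blood progenitors and some stromal cells (chromosome 1, 194938821 to 194961292), was at 224 and 234 FPKM in treated and untreated OE tumours and at 204 and 237 FPKM in treated and untreated KO tumours. Per length, it was 13.2 and 11.6 times the level of Pecam1 in treated and untreated OE tumours and 13.8 and 14.0 times in treated and untreated KO tumours. Esm1 was 7.61 and 6.70 times the level of Pecam1 in treated and untreated OE tumours and 6.23 and 8.72 times in treated and untreated KO tumours. Together the 2 genes made up between 61.4% and 64.2% of the summed FPKM of the 37 members. Which cells made these transcripts was not tested. Egfl7, a secreted protein of sprouting vessels, was at 10.4 and 13.2 FPKM in treated and untreated OE tumours and at 8.24 and 11.0 FPKM in treated and untreated KO tumours.

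Setting a member against Pecam1 of the same library removes the library's own scale. A difference in Pecam1 itself enters every such ratio, and which cells made Pecam1 was not tested. The Apln level was 1.55 and 1.28 times that of Pecam1 in treated and untreated OE tumours and 0.806 and 1.77 times in treated and untreated KO tumours. For Cdh5 the ratio was 0.765 and 0.769 in treated and untreated OE tumours and 0.516 and 0.741 in treated and untreated KO tumours, and for Eng it was 0.755 and 0.623 in treated and untreated OE tumours and 1.28 and 0.774 in treated and untreated KO tumours. Ramp2 kept to between 0.337 and 0.360 times Pecam1 in all 4 libraries. The members did not keep 1 proportion to each other: relative to Pecam1, Apln, Angpt2, Esm1, Dll4, Cdh5 and Gpihbp1 were lowest, and Eng was highest, in the treated KO library.

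**Figure D3:**
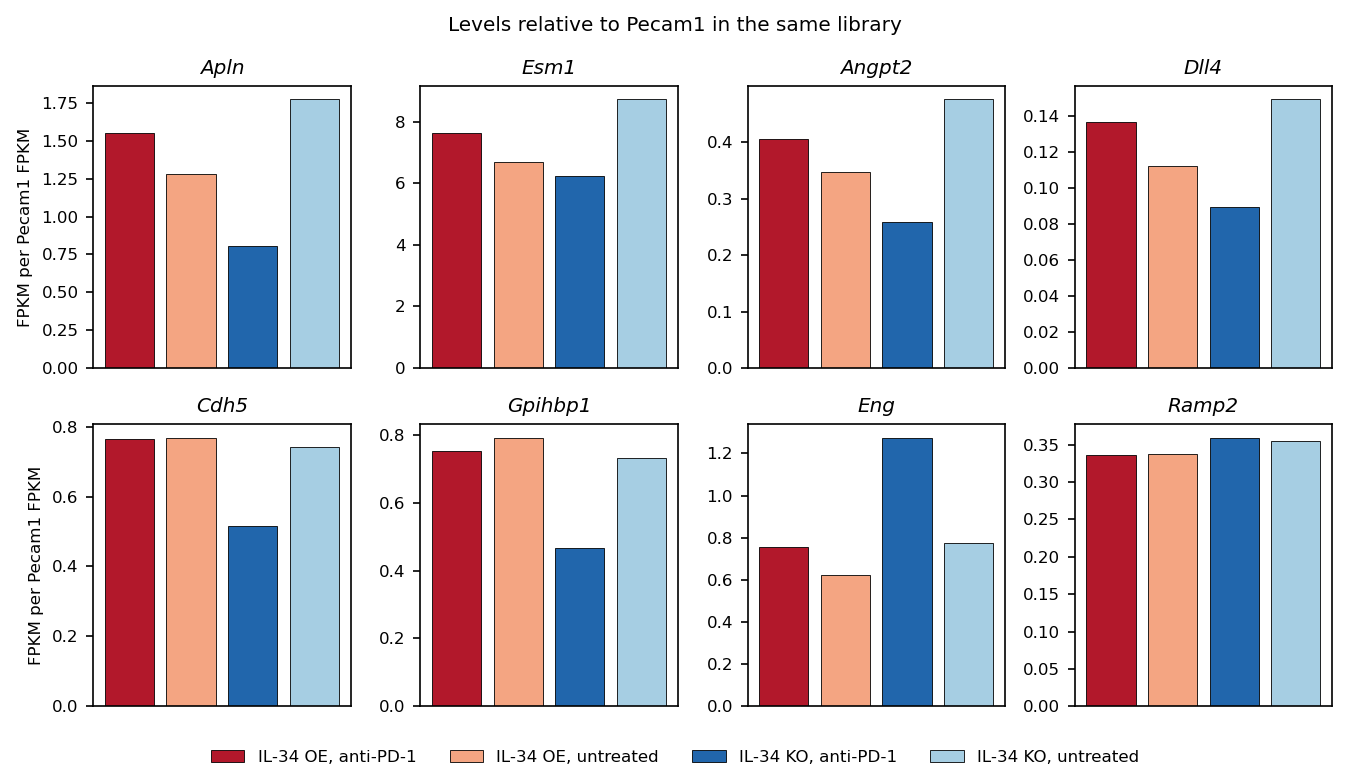
FPKM of 8 members divided by the FPKM of Pecam1 in the same library (vertical axes, from 0, each panel on its own scale), 1 bar per library in the order of the legend. Apln is at 0.806 in treated KO tumours against 1.28 to 1.77 elsewhere, Eng is at 1.28 against 0.623 to 0.774, and Ramp2 is between 0.337 and 0.360.

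Of the genes of leukocyte capture, the selectins Sele and Selp were near level. Icam1 was higher by size with anti-PD-1 in KO tumours, with a log2 ratio of 0.76. Sele, which encodes E-selectin of activated endothelium, was at 16.2 and 14.7 FPKM in treated and untreated OE tumours and at 13.3 and 14.6 FPKM in treated and untreated KO tumours. Selp, the selectin of endothelium and platelets, lay between 1.72 and 2.08 FPKM, and Nos3, the endothelial nitric oxide synthase, between 1.15 and 1.69 FPKM. The log2 ratios of Sele and Selp in the KO line, -0.12 and -0.10, turned positive after rescaling to TPM, as did those of Icam2 and Nos3. The companion list of leukocyte adhesion genes, which holds integrins of leukocytes, had a median log2 ratio of 0.70 in KO tumours over 9 genes, with 6 higher by size, where 7.21% of genes were, and 0 lower, where 2.78% were. In OE tumours it had one of 0.07 over 8 genes, with 0 past the size. Its most abundant genes, Cd44, Vcam1, Itgb2 and Selplg, had log2 ratios of 0.06, -0.04, 0.16 and -0.01 in OE tumours and -0.03, 0.25, 0.70 and 0.90 in KO tumours. Icam1, a ligand for those integrins made by endothelium and many other cells, was at 14.1 and 13.3 FPKM in treated and untreated OE tumours and at 25.6 and 14.7 FPKM in treated and untreated KO tumours. Itgal, an integrin chain of T cells, was at 13.3 and 15.4 FPKM in treated and untreated OE tumours and at 34.6 and 15.8 FPKM in treated and untreated KO tumours.

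The second comparison asked how anti-PD-1 went with these genes where IL-34 was overexpressed. Most members were slightly lower in treated OE tumours, and Cldn5 was the member that passed the size rule. The median over 32 members was -0.10, against -0.00 over 11470 genes, and over all 37 it was -0.08. By size 1 member was lower, where 0.976% of genes were, and 0 were higher, where 0.759% were. The members lay between -0.72 (Cldn5) and 0.21 (Erg). With a pseudocount of 5, or among members with at least 5 FPKM, Cldn5 no longer counted. In the same comparison all 7 skeletal muscle genes were lower by size in treated OE tumours, with a median of -2.05 and a sum of 12.3 FPKM in treated against 90.8 FPKM in untreated OE tumours, and the part of muscle in the endothelial values was not tested.

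In the comparison of the untreated lines, OE against KO, most members had slightly higher values in OE tumours, and Cldn5 was the member that passed the size rule. The median over 32 members was 0.17, against -0.03 over 11477 genes, and 23 of the 32 were above 0, where 40.1% of genes were. By size 1 member was higher, Cldn5 with a log2 ratio of 0.63, where 0.497% of genes were, and 0 were lower, where 0.566% were. Pecam1, Cdh5, Emcn and Icam2 had log2 ratios of 0.24, 0.28, 0.46 and 0.42. The 9 members below 0 were Apln, Ecscr, Angpt2, Selp, Esm1, Dll4, Eng, Flt1 and Cd34, with ratios between -0.21 (Apln) and -0.02 (Cd34). The count of higher members was 3 with a pseudocount of 0.1, 4 after rescaling to TPM and 0 with a pseudocount of 5 or a minimum of 5 FPKM. Ptprb and Clec14a reached 1 FPKM through the OE library alone.

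Under anti-PD-1 the OE tumour had higher levels of most members than the KO tumour. The median over 32 members was 0.31, against 0.04 over 11744 genes, and over all 37 it was 0.26. By size 7 members were higher, where 2.19% of genes were, and 1, Eng at -0.52, was lower, where 7.69% were. The 7 were Apln, Gpihbp1, Angpt2, Cdh5, Aplnr, Dll4 and Rasip1. Apln was 2.21-fold higher in treated OE than in treated KO tumours and Gpihbp1 1.86-fold. Aplnr reached 1 FPKM through the OE library alone, as did Erg, Ptprb and Clec14a. The count of higher members was 14 with a pseudocount of 0.1, 3 with a pseudocount of 5 and 4 among members with at least 5 FPKM. This comparison shares the treated KO library with the first one, so that a low value there enters both.

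Hypoxia-induced genes were lower in the same library as the tip cell genes. Their list of 16, which shares no gene with the members, had a median log2 ratio of -0.80 in KO tumours, with 11 lower by size, where 2.78% of genes were, and 0 higher, where 7.21% were. In OE tumours the median was 0.18, with 1 higher, where 0.759% of genes were, and 0 lower, where 0.976% were. Its most abundant genes, Ldha, Aldoa and Pgk1, had log2 ratios of 0.07, 0.08 and 0.11 in OE tumours and -0.62, -0.44 and -0.93 in KO tumours. Bnip3, Ankrd37 and Ero1l had ratios of 0.20, 0.21 and 0.25 in OE tumours and -1.41, -1.13 and -0.99 in KO tumours. Car9, a hypoxia-responsive carbonic anhydrase, was at 25.7 and 15.3 FPKM in treated and untreated OE tumours and at 4.89 and 19.0 FPKM in treated and untreated KO tumours. Ndrg1, another such gene, was at 101 and 83.5 FPKM in treated and untreated OE tumours and at 38.0 and 96.8 FPKM in treated and untreated KO tumours. Slc2a1, the glucose transporter, was at 81.6 and 73.0 FPKM in treated and untreated OE tumours and at 52.0 and 84.8 FPKM in treated and untreated KO tumours. The part of hypoxia in the levels of the tip cell genes was not tested.

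Companion lists of the vessel wall gave smaller median differences in KO tumours than the hypoxia-induced list. Other tip cell and basement membrane genes had a median of -0.30 in KO tumours over 14 genes, with 4 lower by size, where 2.78% of genes were, and 0 higher, where 7.21% were. Of these 4, Adm is also in the lists of hypoxia-induced genes and angiogenic ligands, and Mcam in that of mural cells. In OE tumours the median was 0.07, with 1 lower, where 0.976% of genes were, and 1 higher, where 0.759% were. The laminin and collagen IV genes Lamb1, Lamc1, Col4a1 and Col4a2, its most abundant, had log2 ratios of 0.08, 0.15, 0.06 and -0.06 in OE tumours and -0.21, 0.04, -0.17 and -0.27 in KO tumours. Ednrb, an endothelin receptor, was at 2.35 and 1.31 FPKM in treated and untreated OE tumours and at 0.223 and 1.04 FPKM in treated and untreated KO tumours. Cxcr4, a chemokine receptor of tip cells and leukocytes, was at 6.11 and 6.91 FPKM in treated and untreated OE tumours and at 4.97 and 8.87 FPKM in treated and untreated KO tumours. The other endothelial genes, 18 of which reached 1 FPKM, had a median of -0.05 in KO tumours, with 1 higher by size (Lyl1, also a gene of blood cells), where 7.21% of genes were, and 0 lower, where 2.78% were. In OE tumours their median was -0.07 with 0 past the size. Cav1, Tm4sf1, Rhoj and Bcl6b, the most abundant, had log2 ratios of 0.05, -0.10, -0.16 and -0.19 in OE tumours and -0.38, -0.49, -0.19 and -0.44 in KO tumours. Co-receptors and partners had medians of 0.12 in OE and -0.06 in KO tumours over 15 genes. By size 2, Itgb3 and Lyve1, were lower in KO tumours, where 2.78% of genes were, and 0 were higher, where 7.21% were. Itgb3 and Lyve1 had log2 ratios of -0.55 and -1.29 there. In OE tumours 1, Lyve1 at 0.60, was higher, where 0.759% of genes were, and 0 were lower, where 0.976% were. The most abundant, Nrp2, Itgav, Procr and Tfpi, lay between -0.03 and 0.17 in OE and between -0.09 and -0.02 in KO tumours. Angiogenic ligands had medians of -0.07 in OE and -0.11 in KO tumours over 10 genes, with 2 lower by size in KO tumours (Pgf and Adm, where 2.78% of genes were) and 1 higher (where 7.21% were). That 1 was Cxcl12, a chemokine of stromal cells, at 7.34 and 8.01 FPKM in treated and untreated OE tumours and at 19.9 and 9.67 FPKM in treated and untreated KO tumours. Slit2 and Angptl4, also abundant, had log2 ratios of 0.06 and -0.01 in OE tumours and 0.13 and -0.31 in KO tumours.

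Mural cell genes, 4 of which reached 1 FPKM, had a median of -0.37 in OE and -0.42 in KO tumours. With anti-PD-1 all 4 were lower in OE tumours, where 49.1% of genes were higher. In KO tumours 3 were lower and 1, Pdgfrb, was higher, where 40.2% of genes were higher. Pdgfrb, a receptor of mural cells and fibroblasts and the most abundant of the list, was at 12.1 and 12.7 FPKM in treated and untreated OE tumours and at 16.2 and 14.1 FPKM in treated and untreated KO tumours. Rgs5, a pericyte gene, was at 4.87 and 6.63 FPKM in treated and untreated OE tumours and at 3.50 and 4.71 FPKM in treated and untreated KO tumours. Mcam, shared by mural and endothelial cells, was at 12.5 and 16.2 FPKM in treated and untreated OE tumours and at 6.36 and 13.4 FPKM in treated and untreated KO tumours. Kcnj8, a channel gene of pericytes, was at 1.11 and 1.75 FPKM in treated and untreated OE tumours and at 0.613 and 1.27 FPKM in treated and untreated KO tumours. Rgs5, Mcam and Kcnj8 were, like Cdh5, highest in untreated OE and lowest in treated KO tumours, whereas Pdgfrb was highest in treated KO tumours.

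**Figure D4:**
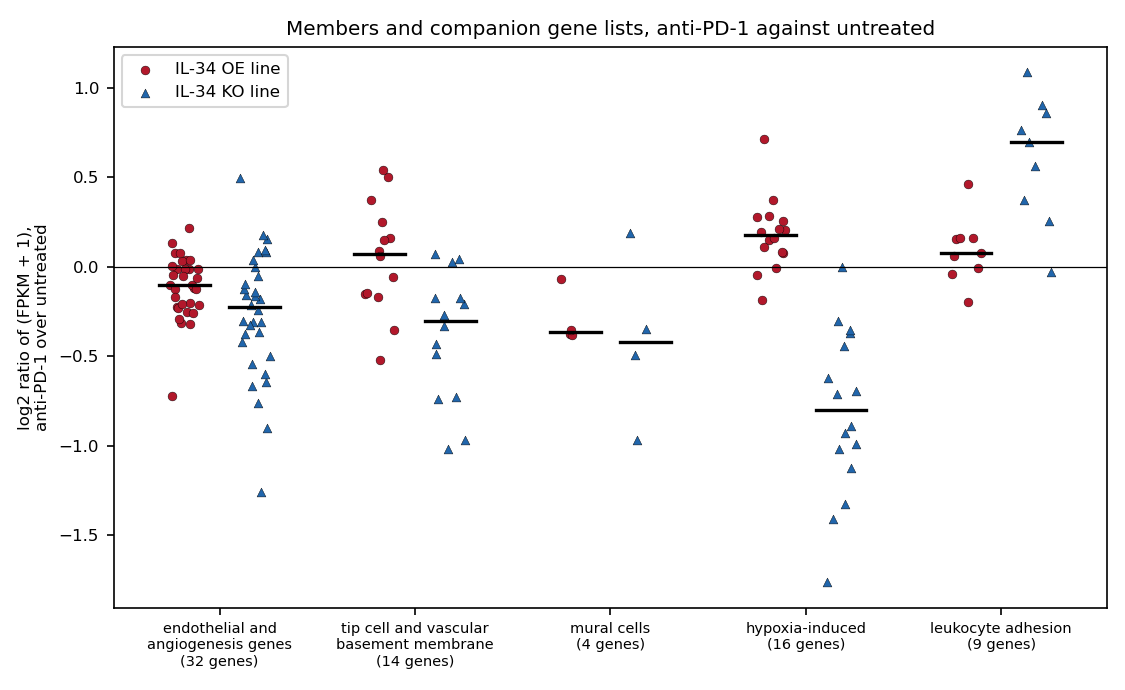
Log2 ratio of FPKM + 1, anti-PD-1 over untreated (vertical axis), of the members and of 4 companion lists, in the OE line (red circles, left) and the KO line (blue triangles, right); each point is a gene with at least 1 FPKM in at least 1 of the 4 libraries and black bars are medians. The hypoxia-induced medians are 0.18 in the OE and -0.80 in the KO line, and those of the 32 members -0.10 and -0.23.

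Markers of lymphatic vessels and platelets bear on Flt4, Selp and Vwf. Prox1, which defines lymphatic endothelium, was listed at 0 in 3 of the 4 libraries and at 0.0428 FPKM in treated KO tumours, and Reln, Mmrn1 and Ccl21a were below 1 FPKM throughout. Pdpn, of the same list, was at 38.9 and 35.4 FPKM in treated and untreated OE tumours. In treated and untreated KO tumours Pdpn was at 28.7 and 32.8 FPKM. Lyve1, shared by lymphatic vessels and macrophages, was at 15.1 and 9.61 FPKM in treated and untreated OE tumours and at 2.12 and 6.60 FPKM in treated and untreated KO tumours. Of 6 platelet genes, Pf4, which macrophages can also express, reached 1 FPKM, at 34.8 and 16.8 FPKM in treated and untreated OE tumours and at 10.5 and 15.5 FPKM in treated and untreated KO tumours. Gp6 was listed at 0 in every library. Of 5 adipocyte genes, Adipoq, Plin1, Cidec and Lep were below 1 FPKM, and Fabp4, also a gene of capillary endothelium, was at 58.4 and 71.6 FPKM in treated and untreated OE tumours and at 41.2 and 63.1 FPKM in treated and untreated KO tumours.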

How the data were processed

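Total RNA of whole tumours was sequenced from strand-specific libraries, per the labels' protocols, in 4 libraries with 1 per group. The authors deposited FPKM values in 23745 gene rows. The tools named, per the submitters' processing notes, are Cufflinks 2.2.1, TopHat2 2.1.0 and CASAVA 1.8.2, and the build is mm10. For their order and settings, strand included, the sources used here give nothing. FPKM is scaled to the library's mapped fragments, so a few very abundant transcripts lower all other values, and total depth is unknown, so no counting interval was computed. The models of Angpt2, Dll4, Eng, Cd34, Egfl7, Selp and Nos3 overlap another row, and their values are uncertain to that extent.

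The members were matched by symbol, with the row of the highest mean used where a symbol had several. Log2 ratios were taken with a pseudocount of 1, and compared with all genes of at least 1 FPKM. Of 149 genes in 13 companion lists, 1 was not matched and 4 were matched by an older symbol. Named genes were all members, the ligands of their receptors, up to 4 companion genes of the highest mean FPKM per list, and companion genes past a log2 of 1. Of these, the other epidermis and muscle genes and low platelet genes are given by list alone. Slc2a1, Icam1, Itgb3, Cxcr4, Lyl1, Calcrl, Prox1, Reln, Gp6 and Lep fell outside this rule and were chosen after their values were seen. Members, lists and motifs were chosen with earlier results of these data known. Alternatives were 2 other pseudocounts, 2 other minimums, rescaling to TPM, centring and summed rows. The calculation was tested on simulated data. Table starts count from 0 and are given from 1. Python 3.11.15, numpy 2.4.6, pandas 2.3.3 and matplotlib 3.10.9 were used.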

Additional observations from a re-analysis of the deposited data

Results flagged for a closer look

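In 9 of the 32 members with at least 1 FPKM, or 28.1%, the anti-PD-1 library lay on opposite sides of the untreated one in the OE and KO lines, as it did in 45.8% of 11826 genes. With 1 library per group this difference was not tested. Of the 9, 5 were higher in treated OE and lower in treated KO tumours. The difference of log2 ratios, OE minus KO, was 1.29 for Apln, 0.63 for Dll4, 0.37 for Erg, 0.26 for Sele and 0.10 for Selp. For Sele and Selp the KO ratio turned positive after rescaling to TPM. The other 4 were lower in treated OE and higher in treated KO tumours, with differences of -0.19 for Ecscr, -0.16 for Plvap, -0.11 for Clec14a and -0.094 for Ptprb.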

How the results depend on the processing

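Of 105 values recomputed under 7 alternatives, 85 stayed within a log2 of 0.1 for a median, or within 1.5 times for a count, and 0 medians reversed. For anti-PD-1 in KO tumours the median was -0.13 with a pseudocount of 5 and -0.13 after rescaling to TPM, the lower count was 4 with a pseudocount of 5, and the higher count was 1 with a pseudocount of 0.1, with TPM and with centring. For anti-PD-1 in OE tumours the lower count was 0 with a pseudocount of 5 and with a minimum of 5 FPKM. Between untreated lines the higher count was 3 with a pseudocount of 0.1, 4 with TPM, and 0 with a pseudocount of 5 or a minimum of 5. Between treated lines the median was 0.16 with a pseudocount of 5. The higher count there was 14 with a pseudocount of 0.1, 3 with one of 5 and 4 with a minimum of 5, and the lower count was 0 with a pseudocount of 5 and 2 with TPM. For the difference of responses the lower count was 1 with TPM and with centring. A pseudocount of 5 shrinks the ratios of low genes by its construction, a minimum of 5 leaves fewer members, and TPM raises the values against the same pseudocount; for the rest the cause was not tested. No paired analysis was possible because each group has 1 library, and for the same reason no library could be left out.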
